A study of Mus musculus with 9 samples.

Results

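The immediate early stress genes Fos, Jun, Junb, Atf3, Egr1, Klf6, Dusp1, Zfp36, Ier2 and Ier3 were followed in the livers of pair-fed (PF) mice, alcohol-fed (AF) mice and alcohol-fed mice given MNA. The genes were chosen by name, as the entries of the gene table that carry one of these 10 symbols, among 26296 gene names with a known transcript. All 10 were found, in 12 entries, because Junb has 3. The table holds 3 libraries of each group, 9 in all, and every level below is in FPKM, a count of sequenced fragments corrected for transcript length and library size. PF mice received an isocaloric liquid diet without alcohol, and AF mice the alcohol-containing Lieber-DeCarli diet, for 5 weeks. The third group, AF with MNA, took the alcohol diet and received MNA at 50 mg/kg into the abdominal cavity. What MNA stands for is not given in the labels, and the methods describe PF and AF only. All mice are labelled as 8 weeks old, and no allele or transgene is named for any group. The strain is given as C57BL/6 for PF and AF and as C57BL/7, C57BL/8 and C57BL/9 for the MNA libraries 1, 2 and 3. The methods name male mice and a fast before the liver was taken. The replicates are numbered without a statement that each is a separate mouse, so p-values measure only the spread between these libraries, which may be technical.

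Immediate early genes are transcribed within minutes of a stimulus, without new protein synthesis, because the factors that switch them on are already in the cell. MAP kinase signalling activates serum response factor with its partners at CArG boxes, and CREB and ATF proteins at cyclic AMP response elements (CRE). The transcripts are short-lived, and part of the group feeds back on the response, as DUSP1 removes the activating phosphates of MAP kinases and the ZFP36 protein (tristetraprolin) binds AU-rich mRNAs and speeds their decay. In liver the group is known for its rise after partial hepatectomy, as hepatocytes prepare to divide.

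Promoter windows of 300 bases, from 250 before to 50 after the RefSeq start site, were found for 8 of the 10 genes, all but Egr1 and Ier2. The stretches below are shown because they carry response elements this group is known for. These stand in capitals, as does the TATA box of Fos. All are from the RefSeq table for GRCm38.p6, read along the gene's strand, and positions count back from the start site.
Fos promoter, chr12:85473770-85473889, plus strand: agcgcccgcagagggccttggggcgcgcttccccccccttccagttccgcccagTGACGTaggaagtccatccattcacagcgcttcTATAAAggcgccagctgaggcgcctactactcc
Atf3 promoter, chr1:191183334-191183453, minus strand: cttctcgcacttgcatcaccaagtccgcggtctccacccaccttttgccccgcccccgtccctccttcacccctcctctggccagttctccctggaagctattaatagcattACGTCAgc
Dusp1 promoter, chr17:26508520-26508682, minus strand: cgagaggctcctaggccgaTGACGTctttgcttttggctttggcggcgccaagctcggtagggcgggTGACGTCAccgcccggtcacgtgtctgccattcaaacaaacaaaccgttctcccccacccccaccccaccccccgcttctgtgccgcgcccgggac
Zfp36, chr7:28379267-28379296, minus strand: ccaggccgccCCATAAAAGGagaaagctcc
Both strands were searched, and motifs could overlap. The full CRE, TGACGTCA, stood in the Dusp1 window at -143 to -136, against 1.79% of all 32851 promoters. Its core, TGACGT, which lies inside the full CRE and was added after the sequences were seen, stood in Fos at -66 to -61, in Atf3 at -8 to -3 on the opposite strand and in Dusp1, so in 3 of 8 windows against 7.51% of all. Among these windows the CArG box was found in Zfp36 alone, at -58 to -49, against 1.63% of all promoters. Boxes more than 250 bases before a start, or in Egr1 and Ier2, were not searched. The RefSeq start of Zfp36 lies inside the longer of its annotated transcripts, ENSMUST00000051241. Its CArG box is therefore upstream of the shorter transcript and within the longer. The Zfp36 window also held the EGR site GCGNGGGCG at -105 to -97, which 5.55% of promoters hold. A TATA box, TATAAA, was found in Fos at -33 to -28 and, from the start site on, in Junb at 1 to 6, against 13.62% of all promoters. The AP-1 site TGANTCA was in none of the 8 windows and in 7.81% of all. These are matches of letters and not shown to be bound here.

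Total reads per library were 57800660 to 82179248. At these depths 1 FPKM corresponds to 5.84 to 8.30 reads over each base of a transcript, which sets how precisely a low gene such as Fos or Atf3 was measured. AF replicate 3 and AF with MNA replicate 1 stood apart in the FPKM summed over assembled transcripts inside introns, at 9433 and 8934 against 2477 to 4937 in the other 7 libraries. For the 10 genes and the pathway lists, calls that change without either library are given. The liver label held for the tissue's own markers, as 6 hepatocyte genes including Alb summed to 14797 to 20959 FPKM in every library. Tissue was measured in bulk, so that fewer cells of a type and less RNA per cell cannot be told apart.

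Zeros need care for 3 of the genes. Jun, Junb and Ier2 have a single exon, and in this table coding genes of a single exon were often listed at exactly 0. Among entries with 1 known coding transcript and at least 3 FPKM in the third-highest library, 39 of 70 single-exon entries (55.7%) were listed at 0 in some library, against 6 of 478 (1.26%) with several exons. A 0 of Jun or Junb is therefore given as listed at 0, with no statement that the RNA was absent.

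Fos and Jun encode the classic partners of AP-1, the dimeric factor that drives much of the secondary response. Fos was at 0.60, 0.19 and 0.20 FPKM in PF, at 0.99, 0.80 and 0.32 FPKM in AF, and at 0.56, 1.51 and 0.47 FPKM in AF with MNA. The highest library was MNA replicate 2, and AF replicate 3 lay among the PF values, so that the groups overlapped. The AF mean of 0.703 FPKM was above the PF mean of 0.330 FPKM (log2 ratio 1.09), a difference that did not pass the test (limma coefficient 0.35 ± 0.20 SE, adjusted p = 0.568). Without AF replicate 3 the log2 ratio was 1.44 and passed the threshold (limma, adjusted p = 0.302), and without PF replicate 1 it was 1.85 and did not pass (limma, adjusted p = 0.600). With MNA the log2 ratio of Fos was 0.27 to AF (limma, adjusted p = 0.999) and 1.36 to PF (limma, adjusted p = 0.474), the last 2.12 without PF replicate 1, which did not pass either. Against AF it turned to -0.08 without AF replicate 3 and to -0.45 without MNA replicate 2.

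Jun was listed at 0, 3.70 and 0 FPKM in PF, at 5.73, 11.8 and 2.97 FPKM in AF, and at 0, 7.80 and 0 FPKM in AF with MNA. Every AF library had a value, whereas PF and AF with MNA each had a value in replicate 2 and were listed at 0 in replicates 1 and 3. Jun was upregulated in AF against PF by the threshold of the methods, which asks for an unadjusted p under 0.05 and for a log2 ratio of group means beyond 1 or -1 (log2 ratio 2.47; limma coefficient 2.06 ± 0.70 SE on log2(FPKM + 1), adjusted p = 0.356). The methods state this cut-off for lncRNAs analysed with Ballgown, and here it was applied to gene entries with limma p-values. The call and the ratio of Jun rest on the values listed at 0 in PF replicates 1 and 3. The AF and PF values overlapped, since AF replicate 3 at 2.97 FPKM was below PF replicate 2. The call was lost when PF replicate 1, PF replicate 3, AF replicate 1 or AF replicate 2 was left out, as the unadjusted p then rose above 0.05 while the log2 ratio stayed between 1.82 and 2.59. Against AF, Jun in AF with MNA had a log2 ratio of -1.40 (limma coefficient -1.76 ± 0.91 SE, adjusted p = 0.940), and without MNA replicate 2, when both remaining MNA libraries are listed at 0, it passed the threshold. Against PF the log2 ratio was 1.08 (limma, adjusted p = 0.926), and it rests on a single library with a value in each group.

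Junb encodes a JUN relative that can restrain JUN at shared sites. The entry of its coding transcript was listed at 0 in all 3 PF and all 3 AF libraries, and at 0, 10.6 and 6.90 FPKM in AF with MNA. It passed the threshold as higher in AF with MNA against AF (limma coefficient 2.17 ± 0.87 SE, adjusted p = 0.940) and against PF (limma coefficient 2.17 ± 0.89 SE, adjusted p = 0.342), with no fold given because the other group was listed at 0. Neither call held when any library other than MNA replicate 1 was left out, and the entry of the neighbouring non-coding Junb transcript showed no such step. That spliced entry was at 0.24, 0.07 and 0.20 FPKM in PF, 0.05, 0.19 and 0.47 FPKM in AF, and 0.11, 0.55 and 0.14 FPKM in AF with MNA, overlapping throughout. The third Junb entry, assembled by the authors, was listed at 0 in 8 libraries and at 1.52 FPKM in MNA replicate 3.

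Atf3, a stress-induced member of the ATF and CREB family, was the lowest of the spliced genes. It was at 0.09, 0.16 and 0.06 FPKM in PF, at 0.34, 0.61 and 0.22 FPKM in AF, and at 0.33, 0.17 and 0.67 FPKM in AF with MNA. All 3 AF libraries and all 3 MNA libraries lay above all PF libraries, the lowest MNA library by only 0.01 FPKM. The mean was 0.390 FPKM in both alcohol-fed groups against 0.103 FPKM in PF, a log2 ratio of 1.92 in each case. The level is below the 0.5 FPKM minimum of the test, and the PF values correspond to about 0.370 to 1.08 reads per base. With every gene above 0 tested, Atf3 passed the threshold as higher in AF against PF (limma coefficient 0.32 ± 0.11 SE, adjusted p = 0.505), where 4.69% of 25240 genes passed it, and did not pass in AF with MNA against PF (limma coefficient 0.32 ± 0.13 SE, adjusted p = 0.526).

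**Figure D1:**
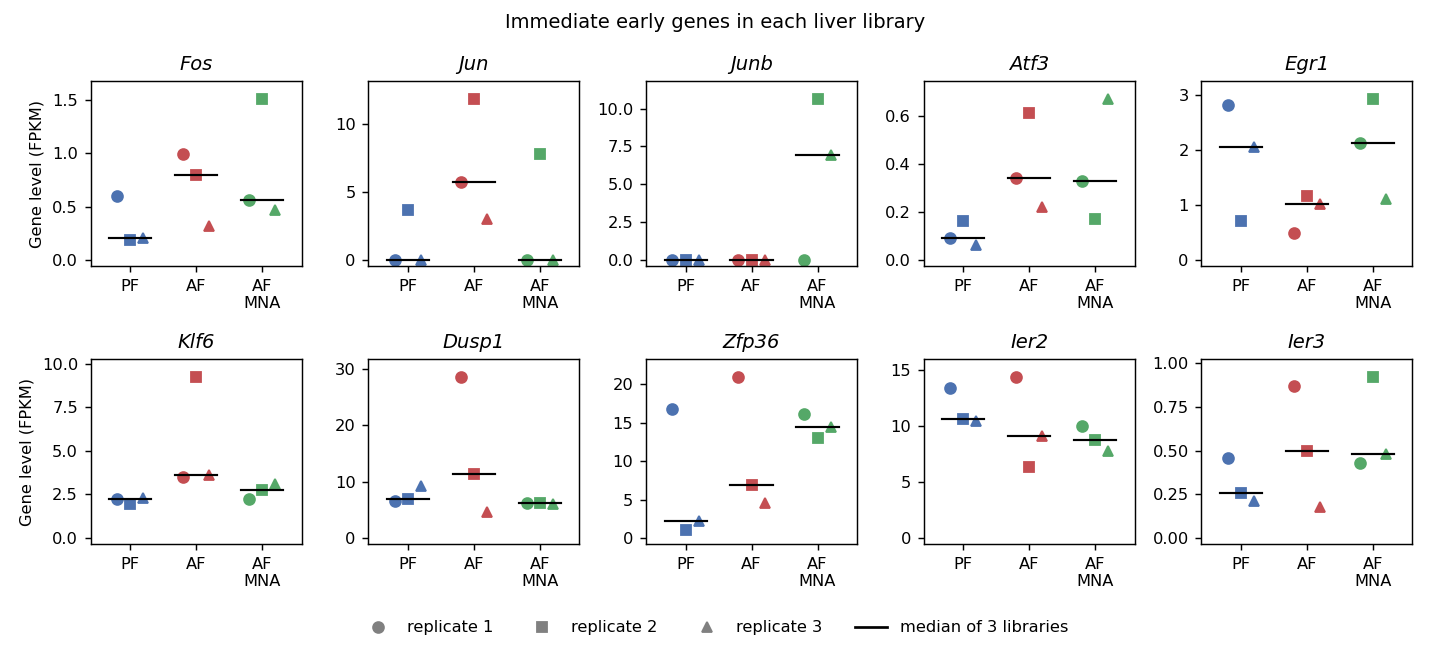
Level of each gene in FPKM (vertical axes, each from 0 and scaled to its gene) in the 3 libraries of PF, AF and AF with MNA (horizontal axis); circles, squares and triangles are replicates 1, 2 and 3, and the bar is the median of the 3. Junb has values in MNA replicates 2 and 3 only, Klf6 and Atf3 lie higher in every AF library than in every PF library, and Dusp1 runs from 4.68 to 28.5 FPKM in AF but from 6.04 to 6.28 FPKM in AF with MNA.

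Egr1, a zinc finger factor induced through serum response factor, had a lower mean in AF than in PF, without passing the test. It was at 2.81, 0.71 and 2.06 FPKM in PF and at 0.48, 1.17 and 1.02 FPKM in AF, and PF replicate 2 lay among the AF values. The log2 ratio of AF to PF was -1.06 (limma coefficient -0.54 ± 0.32 SE, adjusted p = 0.572), and -1.45 without PF replicate 2, past the threshold (limma, adjusted p = 0.337). The MNA libraries were at 2.12, 2.93 and 1.11 FPKM, of which the last lay below AF replicate 2. Egr1 was upregulated in AF with MNA against AF by the threshold (log2 ratio 1.21; limma coefficient 0.67 ± 0.26 SE, adjusted p = 0.940). The call was lost when AF replicate 1, AF replicate 3, MNA replicate 1 or MNA replicate 2 was left out (log2 ratio 0.86 to 1.32). Against PF, Egr1 in AF with MNA had a log2 ratio of 0.14 (limma, adjusted p = 0.910).

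Klf6, a Krüppel-like zinc finger factor, had the narrowest PF values of the transcription factors with a level above 1 FPKM. It was at 2.24, 1.95 and 2.27 FPKM in PF, at 3.47, 9.23 and 3.63 FPKM in AF, and at 2.26, 2.75 and 3.07 FPKM in AF with MNA. All AF libraries exceeded all libraries of both other groups, with AF replicate 2 far above the rest. Klf6 was upregulated in AF against PF by the threshold (log2 ratio 1.34; limma coefficient 0.92 ± 0.32 SE, adjusted p = 0.365). Without AF replicate 2 the log2 ratio was 0.72, under the fold threshold, while the unadjusted p stayed under 0.05 (limma, adjusted p = 0.214), and without PF replicate 1, 2 or 3 the unadjusted p rose above 0.05. With MNA the log2 ratio of Klf6 to AF was -1.02 (limma coefficient -0.70 ± 0.33 SE, adjusted p = 0.940), without AF replicate 1 it was -1.26 and passed the threshold, and without AF replicate 2 it was -0.40. Against PF it was 0.32 (limma, adjusted p = 0.454).

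Dusp1 and Zfp36 are the feedback genes of the group. Dusp1 was at 6.59, 6.89 and 9.19 FPKM in PF, at 28.5, 11.3 and 4.68 FPKM in AF, and at 6.28, 6.25 and 6.04 FPKM in AF with MNA. The AF libraries spanned 6.09-fold, from below to above every other library, whereas the MNA libraries spanned 1.04-fold and lay below all PF libraries. The AF mean of 14.8 ± 12.3 FPKM (SD, n = 3) against 7.56 ± 1.42 FPKM in PF gave a log2 ratio of 0.97 (limma coefficient 0.59 ± 0.56 SE, adjusted p = 0.727). Without AF replicate 3 the log2 ratio was 1.40 and passed the threshold (limma, adjusted p = 0.299), and without AF replicate 1 it was 0.08. Against AF, Dusp1 in AF with MNA had a log2 ratio of -1.26 (limma, adjusted p = 0.966), -1.68 and past the threshold without AF replicate 3 (limma, adjusted p = 0.558), and -0.37 without AF replicate 1. Against PF the log2 ratio was -0.29 (limma, adjusted p = 0.492).

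Zfp36 was at 16.8, 1.10 and 2.23 FPKM in PF, at 20.96, 6.89 and 4.51 FPKM in AF, and at 16.2, 13.1 and 14.4 FPKM in AF with MNA. Replicate 1 was the highest library of each group, and PF replicate 1 lay 15.3-fold above PF replicate 2, above every MNA library and inside the AF range. The log2 ratio of AF to PF was 0.69 (limma, adjusted p = 0.707), 2.70 and past the threshold without PF replicate 1 (limma, adjusted p = 0.477) and -0.23 without AF replicate 1. Against AF, Zfp36 in AF with MNA had a log2 ratio of 0.43 (limma, adjusted p = 0.970), and 1.35 without AF replicate 1, past the threshold (limma, adjusted p = 0.524). Against PF the log2 ratio was 1.12 (limma coefficient 1.65 ± 0.76 SE, adjusted p = 0.399), and 3.13 without PF replicate 1, past the threshold (limma, adjusted p = 0.0368). PF replicate 1 was also the library with the highest heat shock genes, as Hspa1a was at 25.4 FPKM there against 1.46 and 2.15 FPKM in the other PF libraries, and the part of this difference between libraries in the Zfp36 value was not tested.

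Ier2 and Ier3 encode small early response proteins, IER2 a nuclear protein of little-known action and IER3 a regulator of survival signalling. Ier2 was at 13.4, 10.6 and 10.4 FPKM in PF, at 14.4, 6.34 and 9.07 FPKM in AF, and at 9.97, 8.70 and 7.78 FPKM in AF with MNA. It was the steadiest of the 3 single-exon genes and was never listed at 0. Its log2 ratio was -0.21 in AF against PF (limma, adjusted p = 0.773) and -0.17 in AF with MNA against AF (limma, adjusted p = 0.999). All MNA libraries lay below all PF libraries, with a log2 ratio of -0.38, within the fold threshold, at an unadjusted p under 0.05 (limma coefficient -0.34 ± 0.14 SE, adjusted p = 0.343). Ier3 was at 0.46, 0.26 and 0.21 FPKM in PF, at 0.87, 0.50 and 0.18 FPKM in AF, and at 0.43, 0.92 and 0.48 FPKM in AF with MNA. The groups overlapped, with AF replicate 3 the lowest library of all 9. Ier3 was below the minimum level in both comparisons with PF, where its log2 ratios were 0.74 and 0.98, and gave 0.24 in AF with MNA against AF (limma, adjusted p = 0.999).

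In AF against PF, 7 of the 10 genes reached the minimum level and 2, Jun and Klf6, were upregulated, where 4.3% of the 12268 genes tested passed the threshold and 1.95% passed it as higher. The call of Jun rests on PF values listed at 0, and without single-exon entries Klf6 alone was called. None of the 7 was downregulated, where 2.35% of all genes were. Fos reached the minimum through its AF values, and Junb, Atf3 and Ier3 were not tested. The 3 AF libraries lay above the 3 PF libraries for Klf6 among the tested genes and for Atf3 among the others, where 8.18% of the genes tested were separated in this direction, and none of the 10 was separated as lower, where 10.1% were. The 2 upregulated genes were also those at an unadjusted p under 0.05, where 11.7% of all genes were, and 0 reached an adjusted p under 0.05 by limma, where 0.326% of all genes did. In the unmoderated linear model with Ballgown's library covariate, 0 of the 7 passed the threshold, where 2.73% of all genes did. Without AF replicate 3, the library with the high intron signal, 4 of 7 passed it as higher, Fos, Jun, Dusp1 and Klf6, where 2.3% of all genes did as higher and 3.97% as lower. Without PF replicate 1 it was Zfp36 alone, and without PF replicate 2 Jun and, as lower, Egr1. Without AF replicate 1 Klf6 alone passed, and without PF replicate 3 or AF replicate 2 none did. In these fits 4.21% to 4.56% of all genes passed.

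In AF with MNA against AF, 9 of the 10 genes were tested and 2, Junb and Egr1, were upregulated, where 1.98% of 12214 genes passed the threshold, 1.03% as higher and 0.95% as lower. Junb reached the minimum only through its MNA libraries, as all AF libraries were listed at 0, so it could differ in that direction alone. The AF libraries are shared with the comparison above, so that a high or low AF value enters both. Klf6 was the only gene of the 10 whose MNA libraries all lay below the AF libraries, against 4.58% of the genes tested, and none was separated as higher, against 5.53%. The same 2 genes were at an unadjusted p under 0.05, where 5.22% of all genes were, and 0 reached an adjusted p under 0.05 by limma, where 0.0491% of all genes did. In the model with Ballgown's covariate Klf6 alone passed the threshold, as lower, where 0.45% of all genes did. Without AF replicate 3 Dusp1 alone passed, as lower, where 1.1% of all genes did. Leaving out AF replicate 1 gave Zfp36 as higher and Klf6 as lower, and AF replicate 2 or MNA replicate 3 Egr1 alone. Leaving out MNA replicate 1 gave Junb alone, and MNA replicate 2 Jun alone, as lower. In these fits 1.72% to 2.68% of all genes passed.

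In AF with MNA against PF, which shares the PF libraries with the first comparison, 8 of the 10 genes were tested and Junb alone was upregulated, where 3.89% of 12276 genes passed the threshold, 1.94% as higher and 1.95% as lower. Fos reached the minimum through its MNA values, and Junb had values in that group only. Ier2 and Dusp1 were separated as lower, where 11.9% of the genes tested were, and Atf3, which was not tested, as higher, where 9.54% were. Junb and Ier2 were at an unadjusted p under 0.05, where 14.5% of all genes were, and 0 reached an adjusted p under 0.05 by limma, where 0.432% did. None passed the threshold in the model with Ballgown's covariate, where 2% of all genes did. Without PF replicate 1 Zfp36 alone passed, without MNA replicate 1 Junb alone, and without any other library none. In these fits 3.8% to 4.46% of all genes passed.

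**Figure D2:**
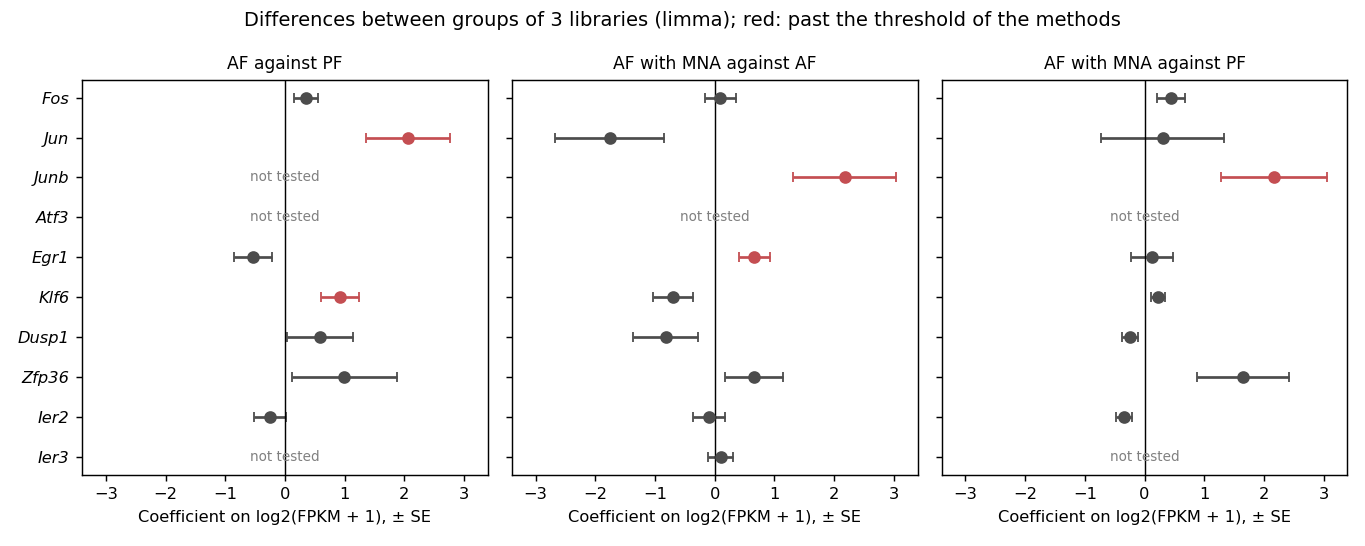
Limma coefficient on log2(FPKM + 1) with its SE (horizontal axes) for each gene (vertical axis) in the 3 comparisons of 3 libraries each; red marks genes past the threshold of the methods, and genes below the minimum level are written as not tested. Jun and Klf6 are red in AF against PF, Junb and Egr1 in AF with MNA against AF, and Junb in AF with MNA against PF.

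The order of the levels differed between groups. In PF, Ier2 led with a mean of 11.5 FPKM, followed by Dusp1, Zfp36, Klf6, Egr1, Jun, Fos, Ier3 and Atf3, and neighbours in this order overlapped except Ier2 with Dusp1 and Ier3 with Atf3. Junb, listed at 0 in every PF and AF library, was given no place in either group, and the place of Jun in PF and in AF with MNA rests on means that include values listed at 0. In AF, Dusp1 led with 14.8 FPKM, followed by Zfp36, Ier2, Jun, Klf6, Egr1, Fos, Ier3 and Atf3. There the first 5 overlapped from neighbour to neighbour, and Klf6 stood clear of Egr1. With MNA, Zfp36 led with 14.6 FPKM, clear of Ier2 at 8.82 FPKM, which was clear of Dusp1 at 6.19 FPKM, and from there on neighbours overlapped. Among the 26345 entries of the table, the PF mean of Ier2 was above 94.1% of the others and that of Fos above 48.9%.

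The spread between libraries of a group was compared with that of all genes. The median over the 10 genes of the SD of log2(FPKM + 1) within a group was 0.21 in PF, 0.43 in AF and 0.25 in AF with MNA, against 0.16, 0.21 and 0.16 over the 12252 entries with a mean of at least 0.5 FPKM. In AF, 8 of the 10 exceeded the median of all entries and 4 were among the tenth with the largest SD, Jun, Dusp1, Zfp36 and Klf6. In PF it was 6 and 3, Zfp36, Egr1 and Jun, with Zfp36 at an SD of 1.63, above 99.4% of the entries, and Jun with 2 values listed at 0. The SD of Junb in PF and AF is 0 because all its values there are listed at 0. With MNA it was 8 and 2, Jun and Junb, which are the genes with values listed at 0. Dusp1 had an SD of 1.19 in AF, above 98.7% of the entries, and of 0.03 in AF with MNA, above 2.89%. Whether the spread differs between groups was not tested, as 3 libraries give little ground for it.

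**Figure D3:**
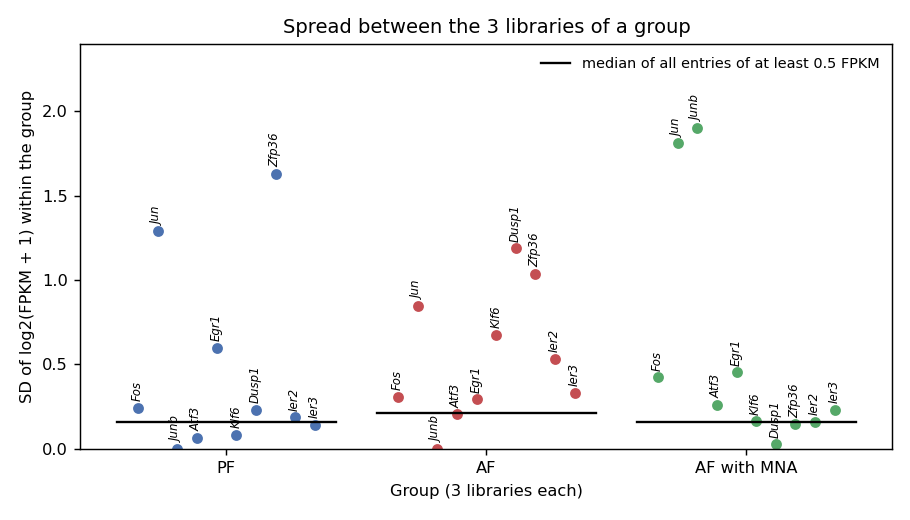
SD of log2(FPKM + 1) between the 3 libraries of a group (vertical axis) for each of the 10 genes (points, named) in PF, AF and AF with MNA (horizontal axis); the line is the median of all entries of at least 0.5 FPKM. Most points lie above the line in AF, where it is at 0.21, while Dusp1 is at 1.19 in AF and near 0 in AF with MNA.

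Each library can be read across the genes by scaling each gene to its own mean and SD over the 9 libraries (z-score). The mean z-score of the 10 genes was -0.02, -0.63 and -0.56 in the PF libraries, 0.67, 0.38 and -0.46 in the AF libraries, and -0.10, 0.66 and 0.07 in the MNA libraries. AF replicates 1 and 2 and MNA replicate 2 were the high libraries, and AF replicate 3 lay with the low PF libraries. AF replicate 3 was the highest of its group for 0 of the 10 genes and the lowest for 6. MNA replicate 2 held the highest value of all 9 libraries for 4 genes, Fos, Junb, Egr1 and Ier3, AF replicate 1 for 3, Dusp1, Zfp36 and Ier2, AF replicate 2 for Jun and Klf6, and MNA replicate 3 for Atf3. The genes did not peak together even among the AF libraries, where Dusp1 peaked in replicate 1 and Klf6 in replicate 2. Over the 7 genes with a spliced transcript, which leaves out Jun, Junb and Ier2, the AF libraries were at 0.69, 0.66 and -0.58, the MNA libraries at 0.06, 0.58 and 0.15 and the PF libraries at 0.01, -0.94 and -0.63.

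**Figure D4:**
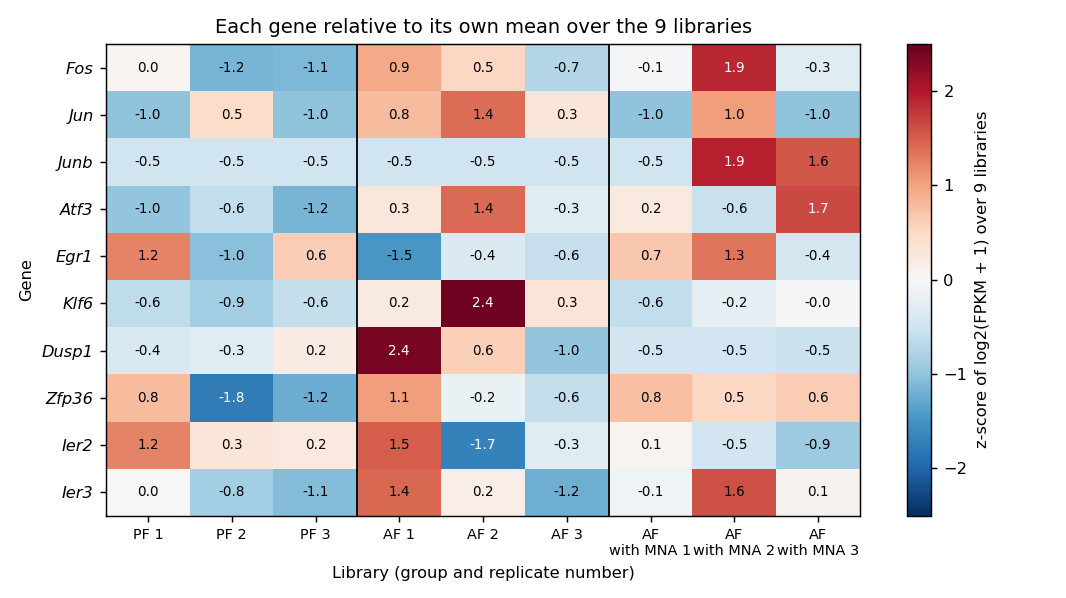
z-score of log2(FPKM + 1) of each gene (vertical axis) over the 9 libraries (horizontal axis, by group and replicate), from blue (low) to red (high), with the value written in each cell. AF replicates 1 and 2 and MNA replicate 2 hold most of the dark red cells, and AF replicate 3 and PF replicates 2 and 3 are mostly blue.

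The wider family was read from a list of 30 other immediate early genes, of which 29 were in the table and 21 reached the minimum level. In AF against PF, 3 of the 21 were upregulated, Ctgf, Gadd45b and Sgk1, where 1.95% of all genes tested were, none was downregulated, where 2.35% were, and 18 of 21 had a log2 ratio above 0, against 46.3% of all genes tested. Gadd45b reached the minimum only through its AF values. Their median limma coefficient was 0.40, against -0.03 over all genes. Ctgf, a matricellular protein gene, was at 1.46, 1.91 and 2.15 FPKM in PF and at 3.74, 3.83 and 4.21 FPKM in AF (log2 ratio 1.09; limma, adjusted p = 0.105). Gadd45b, a growth arrest and stress gene, was at 0.15, 0.45 and 0.34 FPKM in PF and at 1.81, 4.07 and 1.26 FPKM in AF (log2 ratio 2.93; limma, adjusted p = 0.194). Sgk1, a kinase induced by serum and glucocorticoids, was at 2.07, 3.2 and 2.62 FPKM in PF and at 7.22, 6.16 and 3.83 FPKM in AF (log2 ratio 1.13; limma, adjusted p = 0.252). The AF and PF libraries of these 3 genes did not overlap, and over the list 6 of 21 were separated as higher, against 8.18% of all genes tested, and 1 as lower, against 10.1%. With AF replicate 3 left out, 22 were tested, of which 7 passed as higher, where 2.3% of all genes did, and 1 as lower, where 3.97% did. Of the 7, Gadd45b and Nr4a1 reached the minimum only through their AF values. For AF with MNA against AF, none of the 21 passed (limma, with 2 at an unadjusted p under 0.05), 4 had a log2 ratio above 0, against 51.2% of all genes tested, and the median coefficient was -0.39, against 0.01 over all genes. With AF replicate 3 left out, 2 of 22 passed there as higher, where 1.93% of all genes did, and 6 as lower, where 1.1% did, and without MNA replicate 1 only Errfi1 passed, as lower.

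In AF with MNA against PF, 4 of 21 tested genes, which include Ier5 and not Nr4a1, were upregulated, where 1.94% of all genes were, 1 was downregulated, where 1.95% were, and 13 had a log2 ratio above 0, against 47% of all genes tested. Bhlhe40, a clock-linked repressor, was at 17.5, 13.0 and 17.3 FPKM in PF and at 3.98, 4.67 and 5.2 FPKM in AF with MNA (log2 ratio -1.79; limma, adjusted p = 0.0229). In AF it was at 10.6, 1.05 and 12.4 FPKM, with replicate 2 the lowest of all libraries. Gadd45b, which reached the minimum only through its MNA values, was at 1.29, 1.08 and 1.02 FPKM and passed as higher (log2 ratio 1.85; limma, adjusted p = 0.107). Plk3, a stress-responsive kinase, was at 23.1, 7.33 and 8.25 FPKM in PF and at 34.1, 30.4 and 35.3 FPKM in AF with MNA (log2 ratio 1.37; limma, adjusted p = 0.223). The PF libraries of Plk3 had the shape of Zfp36, with replicate 1 well above the others. Without MNA replicate 1, 3 of 23 passed as higher, Myc, Gadd45b and Plk3, where 2.01% of all genes did, and Bhlhe40 as lower, where 2.44% did.

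**Figure D5:**
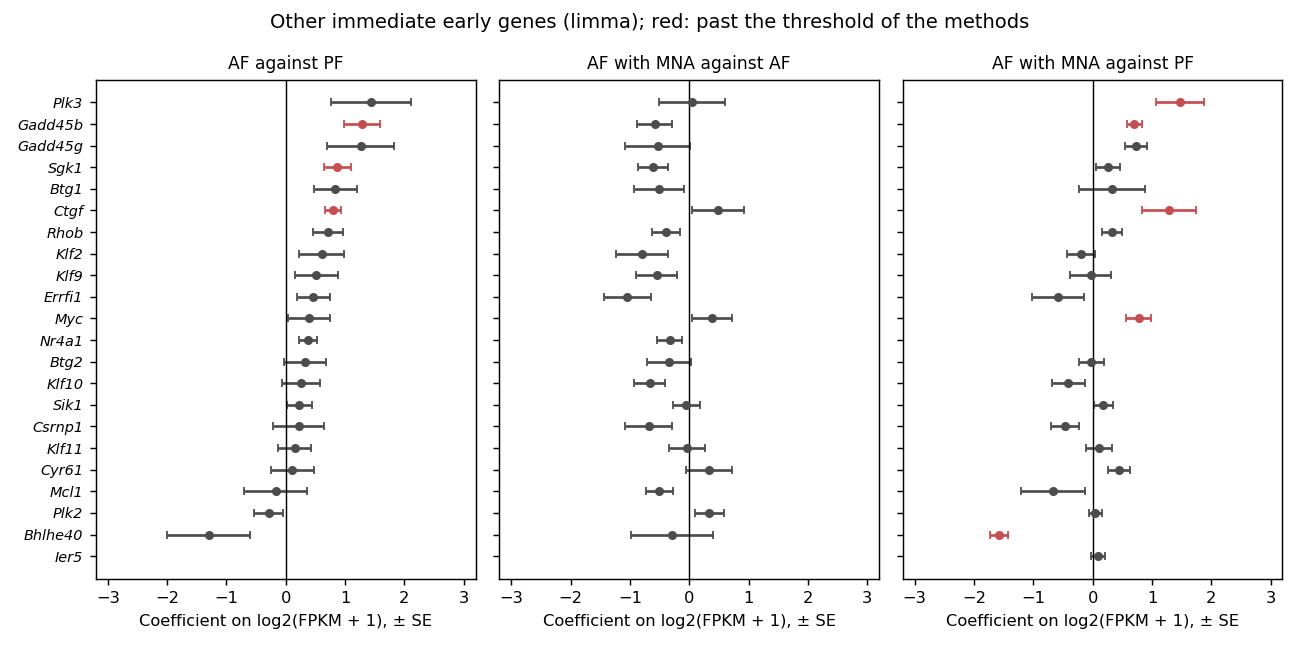
Limma coefficient on log2(FPKM + 1) with its SE (horizontal axes) for the other immediate early genes (vertical axis, ordered by AF against PF, with Ier5 at the foot), in the 3 comparisons of 3 libraries each, with 21 genes tested in each; Nr4a1 was not tested in the last and Ier5 only there, and red marks genes past the threshold of the methods. Ctgf, Gadd45b and Sgk1 are red in AF against PF, none is red in AF with MNA against AF, where the median is -0.39, and 4 higher genes and Bhlhe40 are red in AF with MNA against PF.

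The other lists follow the response from its signals to its targets. Of 8 tested AP-1 and ATF partners, Maff, a small MAF protein gene, was upregulated in AF against PF, from 2.44, 1.66 and 2.10 FPKM to 4.71, 4.76 and 4.27 FPKM (log2 ratio 1.15; limma, adjusted p = 0.0831). Of all genes 1.95% were upregulated in that comparison. None of the 8 partners passed in AF with MNA against AF, where 1.98% of all genes did. By limma 2 were at an unadjusted p under 0.05, where 5.22% of all genes were. Fosl2 was upregulated against PF, at 1.79, 2.12 and 1.03 FPKM against 0.97, 0.50 and 0.94 FPKM (log2 ratio 1.04; limma, adjusted p = 0.305). Of all genes 1.94% were upregulated in AF with MNA against PF. Without MNA replicate 1 Fosl2 did not pass there. Jund, listed at 0 in MNA replicate 2, then passed as lower against AF, where 1.47% of all genes did. Without AF replicate 3 Fosl2 also passed as higher in AF against PF, where 2.3% of all genes did. Of the 17 tested genes of serum response factor and MAP kinase signalling, which act upstream of the promoters, none passed in any of the 3 comparisons (limma, with 1, 0 and 0 at an unadjusted p under 0.05), and their median coefficients were -0.10, 0.07 and -0.03. Among the other MAP kinase feedback inhibitors, relatives of Dusp1, Dusp4 was upregulated in AF against PF as the only one of 9 tested, where 1.95% of all genes were, from 0.69, 0.78 and 0.37 FPKM to 1.98, 1.21 and 1.73 FPKM (log2 ratio 1.42; limma, adjusted p = 0.201). None of 10 passed in AF with MNA against AF and none of 9 against PF (limma, with 1 and 0 at an unadjusted p under 0.05). Spred1 passed as higher in AF with MNA against AF once AF replicate 3 was left out.

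Genes of AU-rich mRNA decay, in which ZFP36 acts, held 2 of the 3 listed pathway genes that reached an adjusted p under 0.05, Zfp36l2 and Elavl1 beside Bhlhe40, all in AF with MNA against PF, where 0.432% of all genes did. With Ballgown's covariate or with the replicate number as a block, 0 of the 12276 genes reached an adjusted p under 0.05 in that comparison, against 53 in the main limma fit. The list of AU-rich decay had 8 tested genes. Zfp36l2, a close relative of Zfp36, was at 2.30, 1.22 and 1.68 FPKM in PF, at 8.62, 3.53 and 3.12 FPKM in AF, and at 11.7, 10.7 and 10.3 FPKM in AF with MNA. The 3 groups were fully separated, and Zfp36l2 passed the threshold in AF against PF (log2 ratio 1.55; limma, adjusted p = 0.337), in AF with MNA against AF (log2 ratio 1.09; limma, adjusted p = 0.940) and in AF with MNA against PF (log2 ratio 2.65; limma, adjusted p = 0.0119). The call against AF was lost without AF replicate 3. Elavl1, which encodes the stabilising AU-rich binding protein HuR, was at 2.03, 2.11 and 1.97 FPKM in PF, at 2.16, 1.74 and 1.66 FPKM in AF, and at 4.15, 4.74 and 4.62 FPKM in AF with MNA. It was upregulated in AF with MNA against AF (log2 ratio 1.28; limma, adjusted p = 0.190) and against PF (log2 ratio 1.14; limma, adjusted p = 0.0289). The other 6 tested genes of this list passed in none of the 3 comparisons. Among all genes, 1.95% passed as higher in AF against PF, 1.03% in AF with MNA against AF and 1.94% in AF with MNA against PF.

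Of the NF-kB and cytokine early genes, 7 were tested in AF against PF, 9 in AF with MNA against AF and 8 against PF, and none passed the threshold (limma, with 1, 0 and 2 at an unadjusted p under 0.05). Without MNA replicate 1 the cytokine gene Il1b passed as higher against AF and against PF, but it reached the minimum only through its MNA values and so could pass in that direction alone. Of 8 tested genes of the integrated stress response, to which Atf3 also belongs, none passed in AF against PF (limma, with 1 at an unadjusted p under 0.05). Chac1, a glutathione-degrading enzyme gene of this pathway, was downregulated in AF with MNA against AF, from 2.9, 2.5 and 1.33 FPKM to 0.04, 1.39 and 0.23 FPKM (log2 ratio -2.02; limma, adjusted p = 0.940). Atf5 was downregulated in AF with MNA against PF, from 42.3, 26.0 and 30.7 FPKM to 11.3, 19.3 and 18.9 FPKM (log2 ratio -1.0; limma, adjusted p = 0.221). Among all genes, 0.95% passed as lower in AF with MNA against AF and 1.95% against PF. Neither the Chac1 nor the Atf5 call held without MNA replicate 1.

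Of 7 tested heat shock genes, Hsp90aa1 was downregulated in AF against PF, from 38.5, 31.8 and 27.6 FPKM to 12.1, 16.8 and 15.1 FPKM (log2 ratio -1.16; limma, adjusted p = 0.0999). Against AF, the MNA libraries had the chaperone gene Hspa1a upregulated, from 0.60, 1.13 and 2.21 FPKM to 3.55, 14.4 and 8.44 FPKM (log2 ratio 2.74; limma, adjusted p = 0.940). Hsph1 was upregulated as well, from 4.16, 2.03 and 3.84 FPKM to 4.77, 8.79 and 8.35 FPKM (log2 ratio 1.13; limma, adjusted p = 0.940). Of all genes, 2.35% were downregulated in AF against PF and 1.03% upregulated in AF with MNA against AF. None of the 7 heat shock genes passed in AF with MNA against PF (limma, with 0 at an unadjusted p under 0.05), where 3.89% of all genes did. Without MNA replicate 1 Hsp90aa1 passed as well against AF, as higher, where 1.22% of all genes did. The mean z-score of the heat shock genes was highest in PF replicate 1, at 1.28, and in MNA replicate 2, at 0.84, both also the highest of their groups for 5 of the 10 immediate early genes. AF replicate 1 was likewise the highest of its group for 5 of the 10, with a heat shock z-score of -0.48. These values stand beside those of Zfp36, Fos, Junb, Egr1 and Ier3 in these libraries, and their part in them was not tested.

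Noncoding transcripts lay near several of the genes, within 5000 bp. Junos, the antisense RNA of Jun, overlaps it on the opposite strand of chromosome 4 with the transcript ENSMUST00000142292. That transcript was at 0.48, 0.53 and 0.87 FPKM in PF, at 1.299, 1.504 and 0.545 FPKM in AF, and at 0.35, 1.13 and 0.86 FPKM in AF with MNA. It was highest in AF replicates 2 and 1, and the groups overlapped. It was above 0 in all 9 libraries. A shorter Junos transcript that does not reach Jun, ENSMUST00000125917, had a mean of 0.956 ± 0.1799 FPKM (SD, n = 3) in PF, 0.568 ± 0.055 FPKM in AF and 0.676 ± 0.341 FPKM in AF with MNA. Gm44710, transcribed against Zfp36 on chromosome 7, had a mean of 0.221 FPKM in PF, 0.319 FPKM in AF and 0.146 FPKM in AF with MNA. No difference of these transcripts was tested. None of the 4486 circRNAs of the series had any of the 10 genes as host.

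The genes whose z-scores over the 9 libraries were nearest to the mean of the 10 were taken from 9973 candidates of at least 1 FPKM, as a description. They were Psmc1, Gm20412, Tgm2, Ddx18, Nr1h2, Lamp1, Suclg2 and Icam1, with a root mean square difference of z-scores from 0.508 for Psmc1 to 0.570 for Icam1. The mean of the 10 was not rescaled and varied less than single genes, so even a gene of the same shape would differ from it. Psmc1, a subunit gene of the proteasome base, was at 11.97, 10.11 and 10.04 FPKM in PF, at 14.2, 12.3 and 10.8 FPKM in AF, and at 10.9, 14.1 and 12.5 FPKM in AF with MNA. AF replicate 1 and MNA replicate 2 were its highest libraries and PF replicates 2 and 3 its lowest. MNA replicate 3 lay above AF replicate 2, unlike in the mean of the 10 genes.

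Markers of other liver cells moved between groups in part. The summed level of 6 endothelial markers was 22.7 to 29.5 FPKM in PF, 30.5 to 43.2 FPKM in AF and 36.9 to 40.3 FPKM in AF with MNA. All 6 had a log2 ratio above 0 in AF against PF, against 46.3% of all genes tested, although 0 of 6 passed the threshold. By limma 2 were at an unadjusted p under 0.05, where 11.7% of all genes were. In AF with MNA against PF all 6 were above 0 as well and 0 passed. There 4 were at an unadjusted p under 0.05 by limma, where 14.5% of all genes were, and 3 separated as higher, where 9.54% were. The median coefficient was 0.53, against 0.34 in AF against PF. The summed level of 6 neutrophil markers was 0.75 to 1.47 FPKM in PF, 1.11 to 2.81 FPKM in AF and 0.66 to 1.40 FPKM in AF with MNA, with AF replicate 1 the highest. Of these markers, 5 had a mean under 0.5 FPKM. Csf3r, the only one tested, had a log2 ratio of 0.09 in AF against PF (limma, adjusted p = 0.959). The 6 cholangiocyte markers summed to 3.29 to 4.36 FPKM in PF, 4.87 to 9.13 FPKM in AF and 3.34 to 6.38 FPKM in AF with MNA, with AF replicate 3 the highest. Most of that sum was Spp1, at 2.09 to 2.97 FPKM in PF and 3.39 to 6.66 FPKM in AF, and 4 of the 6, Krt19 among them, had a mean under 0.5 FPKM, with Krt19 overlapping between the groups. Spp1 and Sox9, the 2 that were tested, were both separated as higher in AF against PF, where 8.18% of the genes tested were. Sox9 was at 0.68 to 0.92 FPKM in PF and 0.94 to 1.39 FPKM in AF, and neither gene passed the threshold. Kupffer cell markers overlapped, at 65.4 to 79.6, 51.5 to 95.7 and 66.7 to 87.1 FPKM, with Marco alone of 7 upregulated in AF and in AF with MNA against PF. In AF against PF 3 of the 7 had a log2 ratio above 0, Vsig4 was lower in every AF library, at 4.59 to 7.11 FPKM against 7.20 to 10.01 FPKM in PF, and Clec4f had a log2 ratio of -0.64. Stellate cell markers overlapped at 29.6 to 30.9, 25.5 to 37.1 and 28.0 to 39.9 FPKM, with 0 of 6 passing in any comparison (limma, with 2, 0 and 1 at an unadjusted p under 0.05), and all 7 lymphocyte markers had a mean under 0.5 FPKM. Of the hepatocyte markers Tat alone passed, as higher in AF against PF. In that comparison 2 of the 6 had a log2 ratio above 0, against 46.3% of all genes tested. Serpina1a was lower in every AF library, at 1111 to 1141 FPKM against 1305 to 1409 FPKM in PF, where 10.1% of all genes were separated as lower. No marker was listed at 0 in all libraries. The part of these cell types in the levels of Fos, Jun, Klf6 and the other genes was not tested.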

How the data were processed

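Liver RNA of 3 PF, 3 AF and 3 AF with MNA libraries was depleted of ribosomal RNA, and strand-specific paired-end libraries were sequenced. The submitters' processing notes name cutadapt 1.9, HISAT2 and StringTie 1.3.4. The authors made the deposited FPKM values of genes and lncRNA transcripts with StringTie. The deposited signal columns hold read coverage per base of lncRNA transcripts, not scaled for depth, and junction reads over a factor set for each library. The count values are back-splice junction reads of circRNAs as deposited. The CPC and CNCI score columns were made by the authors and were not used. The genome build is not given in the sources used here, and 7708 of 7879 known lncRNAs had the same position in GENCODE M21 (GRCm38). Coverage divided by FPKM was a single constant in each library, and total reads were recovered from the circRNA columns.

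Of the 52151 gene entries, those holding both a named gene and a known transcript, 26345 in all, entered the work, and each gene was represented by its entry with the highest mean. Entries whose mean over the 6 libraries reached 0.5 FPKM were fitted as log2(FPKM + 1) with limma 3.58.1 (lmFit, eBayes with trend) in R 4.3.3, with Benjamini-Hochberg adjustment over all of them and two-sided tests. To pass the threshold of the methods a gene needed p under 0.05 before adjustment and a log2 ratio of mean FPKMs beyond 1 or -1. The log2 ratio uses mean FPKM, and the limma coefficient on log2(FPKM + 1) understates changes of low genes. With 3 libraries against 3, an exact permutation test cannot go below 0.1. The 10 genes and all lists were chosen with earlier results of these data known. Named beside the 10 genes were, per list and comparison, at most 3 genes past the threshold by p, and the 8 genes most like the mean z-score. Genes whose call changed without a library were named after their values were seen. Of 114 listed pathway names, Egr4, Elk1, Map2k7, Tia1, Cebpb and Hspa1b were not matched. Alternatives were another pseudocount, median scaling, no trend, all 9 libraries in the fit, other minimum levels, the coefficient as fold change, Ballgown's covariate, the replicate block, and each library left out. Deviations from group means correlated at -0.08 to 0.061 between same-numbered libraries and at -0.123 to 0.097 between the others. This cannot decide whether the numbers pair the samples, and the main fit used no pairing.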

Additional observations from a re-analysis of the deposited data

How the results depend on the processing

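For the 3 comparisons in the order AF against PF, AF with MNA against AF and AF with MNA against PF, 527, 242 and 477 genes passed the threshold, and 2, 2 and 1 of the 10 immediate early genes. With any value above 0 allowed, 1183, 676 and 1105 genes passed, and 0 of the 10 in both MNA comparisons. With a minimum of 2 FPKM it was 265, 81 and 228 genes, with 1 of the 10 in AF with MNA against AF and 0 against PF. With limma's coefficient as fold change it was 249, 99 and 229 genes, with 1 of the 10 in AF against PF and 1 in AF with MNA against AF. With Ballgown's covariate it was 335, 106 and 246 genes, and 0, 1 and 0 of the 10. With all 9 libraries in the fit 1 of the 10 passed in AF against PF, with median scaling 1 in AF with MNA against AF, and with a pseudocount of 0.1 it was 0 in AF with MNA against PF. The alternatives with other minimum levels test other sets of genes, and otherwise the cause was not tested.

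With each library left out in turn, 516 to 764, 211 to 367 and 467 to 545 genes passed, and 0 to 4, 1 to 2 and 0 to 1 of the 10. The highest counts of the first 2 comparisons, 764 and 367, came without AF replicate 3, when the higher calls moved from 239 to 280 and the lower from 288 to 484 (higher share 45.35% to 36.65%), and from 126 to 234 and from 116 to 133 (52.07% to 63.76%). The log2 ratio changed sign without a library for Ier2 in AF against PF (-0.57 to 0.0295) and in AF with MNA against AF (-0.41 to 0.19), for Zfp36 in AF against PF (-0.23 to 2.70, and without a sign change 0.06 to 1.35 in AF with MNA against AF), for Fos (-0.45 to 0.60) and Ier3 (-0.17 to 0.84) in AF with MNA against AF, and for Egr1 in AF with MNA against PF (-0.25 to 0.57). None of these 6 passed the threshold with all libraries.

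2 alternatives were chosen after seeing the data, as were the pathway lists without either library of high intron signal. Without single-exon entries 464, 177 and 400 genes passed, which is 4.17%, 1.6% and 3.59% of those tested. Of the 10 genes, 5, 6 and 5 were then tested, and 1, 1 and 0 passed. Without AF replicate 3 and AF with MNA replicate 1 together, 470 genes passed in AF with MNA against AF, and the log2 ratio of Zfp36 was -0.0182.

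With the replicate number as a block, 562, 260 and 488 genes passed. Of the 10, it was 2, 3 and 2, with Jun added in AF with MNA against AF (adjusted p = 0.930) and Zfp36 in AF with MNA against PF (adjusted p = 0.419) by limma. The samples are known to share only a number. No correlation between libraries, same-numbered or not, exceeded 0.1, so these values cannot decide whether the numbers pair the samples. Depth limits Atf3, Ier3 and Fos most, whose levels lie near or below the minimum.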
